A study of Homo sapiens with 12 samples.

Results

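The genes of the human mitochondrial genome were followed in KYSE70 cells, a line from an esophageal squamous cell carcinoma, left untreated or given 1 of 2 drugs. The genes were chosen by their symbol, which starts with MT-, and number 37 of the 58884 genes in the deposited table: 13 protein genes, 2 rRNA genes and 22 tRNA genes. The 12 RNA libraries form 3 groups of 4: untreated control cells, cells exposed for 72 h to pyrimethamine at 10 µM, and cells exposed for as long to mitoxantrone at 20 nM. Pyrimethamine is an antifolate known as an antimalarial, and mitoxantrone is a chemotherapy agent that binds between DNA bases and traps type II topoisomerases on DNA. The labels name no vehicle for the control and do not tie the libraries of a group to separate cultures. The p-values therefore reflect the spread between libraries only, and that spread may be technical.

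Human mitochondria carry their own small circular DNA, which encodes only subunits of the respiratory chain and of ATP synthase together with the rRNAs and tRNAs that translate them. Both strands are transcribed into long precursors by a dedicated polymerase, and the tRNAs that punctuate the genome are excised, which frees the mRNAs and rRNAs on either side. All proteins that copy, transcribe, process and degrade this genome and its RNA are made from nuclear genes and imported.

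On the reference sequence (GRCh38, chromosome M, GENCODE release 29) 28 of the genes lie on the plus strand, and 9 lie on the minus strand, MT-ND6 and 8 tRNAs. Only 6 of the 22 tRNA genes held enough reads to be tested. Their sequences are shown because the results on tRNAs rest on these genes alone. Capitals mark the anticodon, and each sequence runs 5′ to 3′ along the RNA.

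MT-TT, threonine, plus strand, chrM:15888-15953: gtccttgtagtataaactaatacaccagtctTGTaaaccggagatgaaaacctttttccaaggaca
MT-TW, tryptophan, plus strand, chrM:5512-5579: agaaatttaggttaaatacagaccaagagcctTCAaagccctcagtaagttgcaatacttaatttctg
MT-TQ, glutamine, minus strand, chrM:4329-4400: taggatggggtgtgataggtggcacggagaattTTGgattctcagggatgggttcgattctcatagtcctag
MT-TE, glutamate, minus strand, chrM:14674-14742: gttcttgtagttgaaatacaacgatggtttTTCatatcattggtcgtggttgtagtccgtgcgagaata
MT-TP, proline, minus strand, chrM:15956-16023: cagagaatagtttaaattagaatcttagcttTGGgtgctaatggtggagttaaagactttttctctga
MT-TS1, serine, minus strand, chrM:7446-7514: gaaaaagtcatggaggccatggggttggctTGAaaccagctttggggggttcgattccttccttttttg

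Some protein genes share bases. The end of MT-ATP8 overlaps the start of MT-ATP6 by 46 bases, and both are read from a single mRNA in different frames. The overlap is shown because a read from it cannot be given to either gene alone, and its capitals mark the start codon of MT-ATP6.

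MT-ATP8 and MT-ATP6 overlap, plus strand, chrM:8527-8572: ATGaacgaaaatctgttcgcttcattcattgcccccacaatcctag

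MT-ND4L and MT-ND4 share 7 bases in the same way (chrM:10760-10766). MT-TQ shares 3 bases with MT-TI on the other strand. How reads in shared stretches were counted, and whether the counting used the strand, is not given in the sources used here.

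The libraries held between 47.5 M and 94.5 M reads assigned to genes. Of the 9 squamous epithelial markers, all reached a normalized count of 10, the minimum used for testing, and KRT5 was the highest of them. Fibroblast markers reached it for 3 of 6 genes. Their summed level was 16889 to 17596 in control, 11847 to 13230 in pyrimethamine and 5873 to 7647 in mitoxantrone libraries, nearly all from COL1A1 and COL3A1, while COL1A2, DCN and LUM stayed under 4 normalized counts in every library. One leukocyte marker (PTPRC, at most 29.4) and one endothelial marker (VWF) of 5 and 4 reached it, and none of 4 glandular markers. The summed endothelial level was 948 to 1059, 1049 to 1153 and 175 to 247 in the same order, nearly all from VWF. PECAM1, CDH5 and KDR stayed at or below 7.27 normalized counts in every library. The endothelial and fibroblast sums were lowest in the group where the mitochondrial genes were lowest. Their part in the results was not tested. Mitoxantrone replicate 1 and pyrimethamine replicate 1 stood below the other libraries of their groups for most mitochondrial genes. Over all genes, mitoxantrone replicate 1 also differed more from the other libraries of its group than those did from each other.

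Mitochondrial genes held a larger part of the reads after pyrimethamine and a smaller part after mitoxantrone. In control libraries 1 to 4 their share of all reads was 6.34%, 6.16%, 6.69% and 6.54%. It was 6.83%, 7.82%, 8.33% and 7.62% with pyrimethamine and 3.23%, 3.89%, 3.84% and 3.87% with mitoxantrone. The groups did not overlap: means were 6.43% ± 0.230 (SD, n = 4), 7.65% ± 0.621 and 3.71% ± 0.321. Without pyrimethamine replicate 1 that mean was 7.92%, and without mitoxantrone replicate 1 it was 3.87%. Because these are bulk samples, fewer cells rich in mitochondria and less mitochondrial RNA in each cell cannot be told apart.

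**Figure D1:**
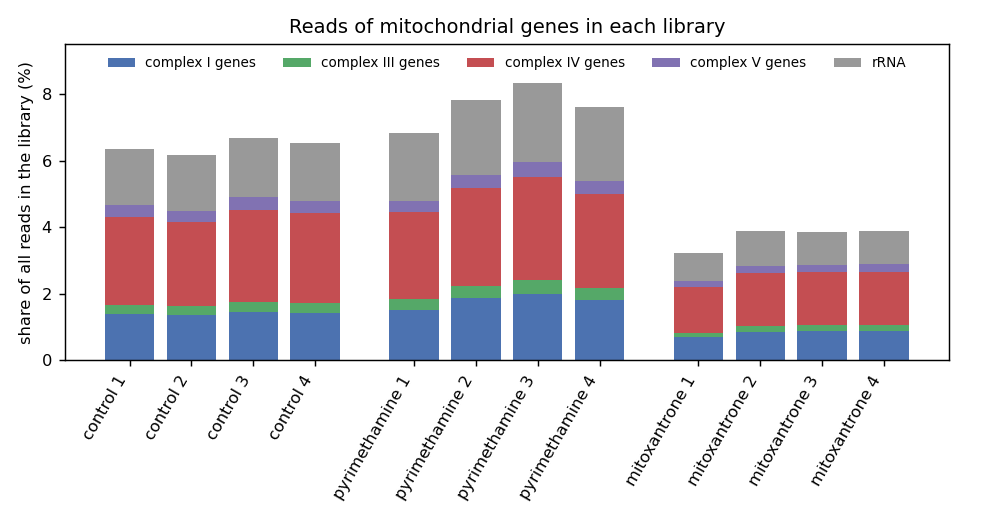
Stacked bars give, for each of the 12 libraries, the percent of all reads that fell on the genes of respiratory complexes I, III, IV and V and on the rRNA genes. Total heights run from 6.16% to 6.69% in control, 6.83% to 8.33% in pyrimethamine and 3.23% to 3.89% in mitoxantrone libraries. The tRNAs are too rare to be drawn.

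Protein genes and rRNAs made up nearly all of these reads. Protein genes held 4.71% ± 0.176, 5.43% ± 0.482 and 2.75% ± 0.244 of all reads in control, pyrimethamine and mitoxantrone libraries (SD, n = 4). The rRNAs held 1.72% ± 0.0558, 2.22% ± 0.139 and 0.958% ± 0.0832. Within the mitochondrial reads, the rRNA part was 26.6% to 27.1% in control and 28.4% to 29.8% in pyrimethamine libraries, which did not overlap, and 25.1% to 26.8% in mitoxantrone libraries, which overlapped the control. All 22 tRNAs together held 0.0103%, 0.0154% and 0.00598% of mitochondrial reads on average. Minus-strand genes held 0.0553%, 0.0635% and 0.0458%, most of it MT-ND6.

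The parts of the respiratory chain did not keep equal shares of the protein-gene reads. Complex I, the NADH dehydrogenase with 7 mitochondrial subunits, took 29.6% to 30.3% in control, 31.7% to 33.5% (33.3% to 33.5% without replicate 1) in pyrimethamine and 28.9% to 30.4% in mitoxantrone libraries. Complex IV, cytochrome c oxidase, with 3 subunits encoded here, took 56.0% to 56.9%, 52.4% to 54.3% (52.4% to 52.7% without replicate 1) and 55.7% to 57.3% in the same order. With pyrimethamine the share therefore lay above the control range for complex I and below it for complex IV in all 4 libraries, and with mitoxantrone both shares overlapped the control. Complex III, present through cytochrome b alone, took 5.70% to 6.04%, 6.68% to 6.79% and 6.16% to 6.26%. Complex V, the ATP synthase, took 7.52% to 7.70%, 7.16% to 7.4% and 7.68% to 7.93%.

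Single genes differed in their shares as well. MT-CO1, the catalytic subunit of complex IV, took 28.5% of protein-gene reads in the control (28.0% to 29.2%), 25.0% with pyrimethamine (24.8% to 25.4%) and 26.1% with mitoxantrone (25.6% to 26.7%). MT-ND1, the first protein gene after the rRNAs, lay above the control range with one drug and below it with the other, with 6.63% to 7.0% in control, 7.95% to 8.30% in pyrimethamine and 4.48% to 4.57% in mitoxantrone libraries. MT-ND4 took 10.9% to 11.4% in control and 12.5% to 13.8% in mitoxantrone libraries, and MT-CO2 took 11.4% to 11.9% and 13.1% to 13.9%. These are parts of a whole, so a smaller share of one gene goes with a larger share of others, and no test was made on them.

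Levels of different genes were set beside each other per length. How RNA was selected is not given, so ranks across rRNAs, mRNAs and tRNAs describe reads and may not follow RNA amounts. In the control the highest levels were 630037 ± 24123 normalized counts per kilobase for MT-RNR2 and 612479 ± 33567 for MT-CO3 (SD, n = 4), which lay within their spread of each other. MT-CO1 (544315 ± 25338) and MT-CO2 (503319 ± 24460) followed, and then MT-ATP6 at 279112 ± 8929. MT-ND2, MT-ND3 and MT-ND4L lay close together at 116277, 115449 and 108169. MT-RNR1, the rRNA of the small ribosomal subunit, ranked only thirteenth per kilobase at 96217 ± 5343, and MT-ND5 came next at 85075 ± 3585. MT-ND6, the only protein gene of the minus strand, was at 4128 ± 785, within the spread of the highest tRNA gene, MT-TT, at 4355 ± 401. With mitoxantrone MT-CO3 (388702 ± 19785 per kilobase) and MT-RNR2 (371647 ± 38660) again lay within their spread of each other.

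Changes were tested with limma on log2(normalized count + 1), adjusted by Benjamini-Hochberg over the 16950 genes that reached a value of 10 in 4 or more libraries. All 13 protein genes, both rRNAs and 6 tRNAs entered, 21 of 37 genes. Some of these tRNAs passed the minimum only through the groups where they were high, so counts are given for the 15 protein and rRNA genes and the tRNAs are described apart. With pyrimethamine 13 of the 15 rose, none fell and 2 did not pass the test, while 26.4% of all tested genes rose and 26.9% fell. All 4 treated libraries lay above all controls in 9 of the 15 and in 25.8% of all tested genes. The median log2 change was 0.35 over the 15 genes and 0.0018 over all genes. After quantile normalization 8 of the 15 rose, MT-CO2 and MT-ATP6 turned to -0.026 and -0.012, and MT-RNR2 and MT-CO3 were at 0.

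**Figure D2:**
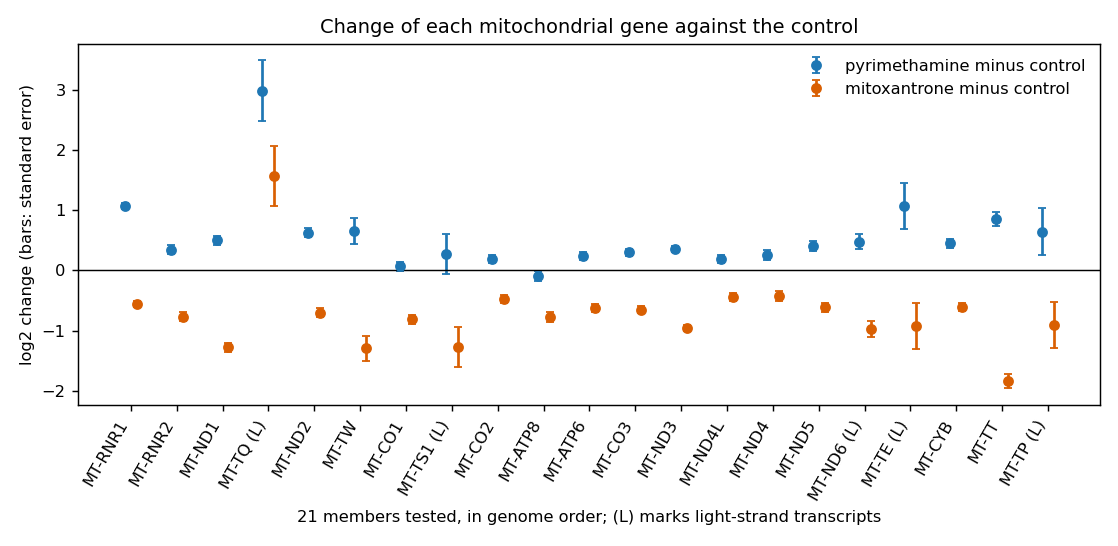
Points give the log2 change of each tested mitochondrial gene against the control in genome order, with pyrimethamine in blue and mitoxantrone in orange, bars are standard errors from the limma fit, and (L) marks minus-strand genes. Blue points range from -0.09 (MT-ATP8) to 2.99 (MT-TQ) and orange points from -1.84 (MT-TT) to 1.57 (MT-TQ). After quantile normalization the blue points of MT-CO2 and MT-ATP6 fall just below 0.

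Both rRNAs rose with pyrimethamine, and by unequal amounts. MT-RNR1 had normalized counts of 84314, 93438, 95782 and 93630 in control libraries 1 to 4. Values with pyrimethamine were 183651, 183984, 200309 and 202175, and with mitoxantrone 59463, 66305, 60370 and 62121. The 3 groups were far apart. The change with pyrimethamine was 1.07 on the log2 scale (SE 0.049, adjusted p = 4.33e-13), a 2.10-fold rise, and with mitoxantrone it was -0.56 (adjusted p = 1.61e-09). MT-RNR2, the rRNA of the large ribosomal subunit, ran from 949349 to 1030468 in control, 1129197 to 1340641 in pyrimethamine and 495913 to 639437 in mitoxantrone libraries. Its changes were 0.35 (SE 0.074, adjusted p = 0.000498) and -0.77 (adjusted p = 8.03e-09). After quantile normalization the pyrimethamine change of MT-RNR2 was 0, because it was the highest gene of every control and pyrimethamine library and such a gene is then given one value.

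**Figure D3:**
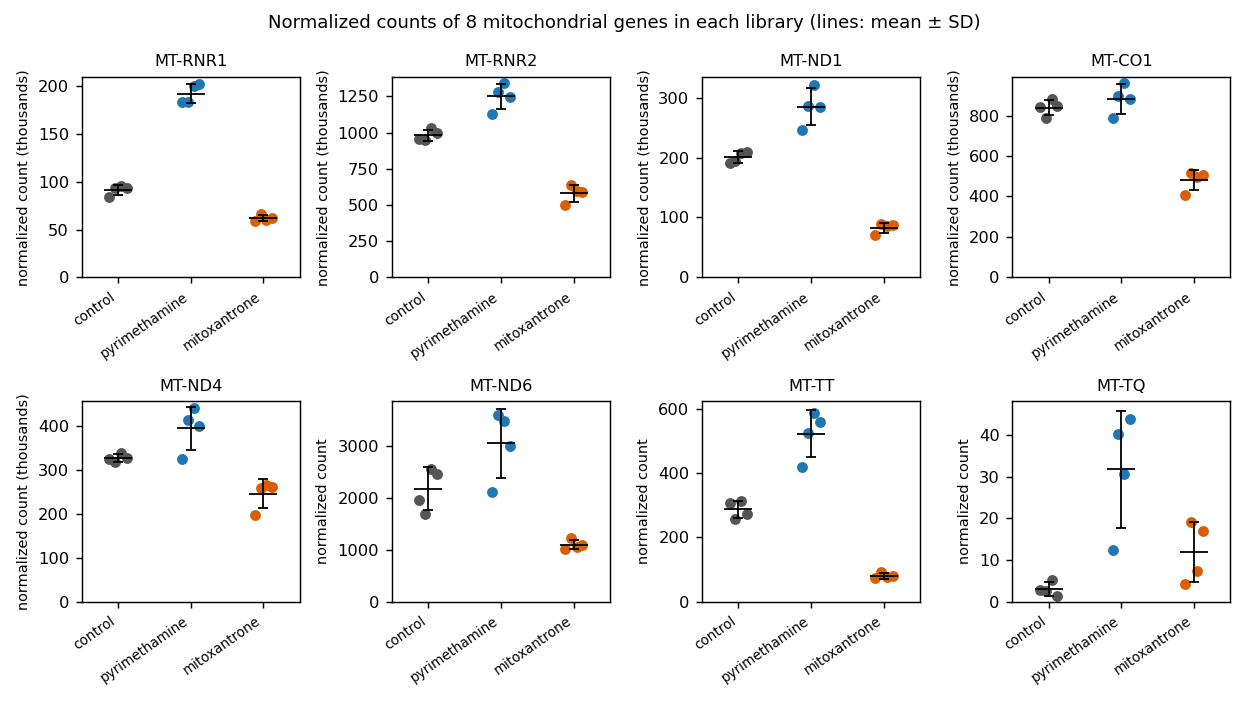
Each panel plots the normalized count of 1 mitochondrial gene in the 4 control (grey), 4 pyrimethamine (blue) and 4 mitoxantrone (orange) libraries, on an axis of its own, with the mean and SD as black lines. MT-RNR1 stands between 183651 and 202175 in all pyrimethamine libraries, against at most 95782 in the control, whereas the MT-CO1 libraries of those groups overlap.

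All 7 complex I genes rose with pyrimethamine. MT-ND2 had the largest change among protein genes, from 119947, 120061, 122383 and 122250 in the control to 160539, 193533, 209039 and 186725 (log2 0.62, SE 0.076, adjusted p = 5.11e-07). MT-ND1 followed, from 190577, 194340, 208130 and 209935 to 246315, 287280, 322163 and 285578 (log2 0.50, adjusted p = 5.34e-06). Neither gene had overlapping groups. MT-ND6 changed by 0.48 (adjusted p = 0.00369), MT-ND5 by 0.41 (adjusted p = 0.000224) and MT-ND3 by 0.36 (adjusted p = 1.92e-06). MT-ND4 and MT-ND4L, read from a single mRNA, had smaller changes of 0.26 (adjusted p = 0.0151) and 0.19 (adjusted p = 0.0121). Both of those genes had pyrimethamine replicate 1 inside the control range, at 326785 and 31135.

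In the other complexes 4 of 6 genes rose. MT-CYB, cytochrome b of complex III, rose by 0.45 (SE 0.069, adjusted p = 1.10e-05), from 163981 to 182408 in the control to 209546 to 262293. In complex IV, MT-CO3 rose by 0.30 (adjusted p = 0.000213; 0 after quantile normalization, where it held the same rank in every control and pyrimethamine library) and MT-CO2 by 0.19 (adjusted p = 0.0286), while MT-CO1 did not pass the test at 0.07 (SE 0.076, adjusted p = 0.467). The MT-CO1 libraries were at 840671, 786776, 880815 and 849071 in the control and 787420, 898278, 962148 and 879778 with pyrimethamine. Its change was 0.12 without pyrimethamine replicate 1 and 0.026 without replicate 3. In complex V, MT-ATP6 rose by 0.24 (adjusted p = 0.00648), from at most 195533 to at least 198035. MT-ATP8, which shares its mRNA with MT-ATP6, did not pass the test at -0.09 (SE 0.085, adjusted p = 0.373), and was at 0.0090 without pyrimethamine replicate 1 and -0.17 without replicate 3.

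Several of the smaller rises depended on 1 library or on the setting. Without pyrimethamine replicate 3, 10 of the 15 genes rose, and MT-CO2, MT-ND4, MT-ND4L and MT-TE no longer passed (adjusted p = 0.126, 0.0695, 0.0650 and 0.0633). MT-CO2 also failed without control replicate 1 or 2 or pyrimethamine replicate 2 (adjusted p = 0.0821, 0.0784 and 0.0737). MT-TE also failed without control replicate 2 or pyrimethamine replicate 2 or 4 (adjusted p = 0.0960, 0.0583 and 0.0622). It failed as well with no filter on low values (adjusted p = 0.0845) and after quantile normalization (0.0548). Without pyrimethamine replicate 1, the lowest library, 13 of the 15 rose. MT-CO2 also failed after rescaling libraries to the same total (adjusted p = 0.1), after rescaling to the same total outside the mitochondrial genome (0.0680) and with no variance trend (0.0813). MT-ND4L failed after the first rescaling (adjusted p = 0.0613), after quantile normalization (0.173) and with no variance trend (0.0668). MT-ND4 failed with a robust variance (adjusted p = 0.0669) and with no variance trend (0.0717).

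With mitoxantrone all 13 protein genes and both rRNAs fell, 15 of 15, while 35.8% of all tested genes fell and 33.5% rose. In each of the 15 every treated library lay below every control, which held for 31% of all tested genes, while 29.9% had every treated library above. The median log2 change was -0.66 over the 15 genes and -0.0080 over all genes. All 15 fell with any 1 library left out and under every scaling tried.

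The falls of the protein genes ranged from -0.43 to -1.28. MT-ND1 fell most, to 70543, 88280, 86465 and 87126 normalized counts (log2 -1.28, SE 0.073, adjusted p = 1.62e-12), a 2.42-fold drop. MT-ND6 (-0.97, adjusted p = 1.01e-06) and MT-ND3 (-0.96, adjusted p = 2.49e-13) came next. MT-ND3 was at 20244 to 20956 in all 4 treated libraries, against 37223 to 42730 in the control. The smallest falls were those of MT-ND4 (-0.43, adjusted p = 0.000172), MT-ND4L (-0.44, adjusted p = 1.29e-06) and MT-CO2 (-0.47, adjusted p = 4.05e-06). MT-ND4 was at 325808, 319509, 340345 and 327861 in the control and 196851, 258894, 267282 and 260738 with mitoxantrone, so that replicate 1 was the farthest from the control. The remaining protein genes lay between -0.61 (MT-CYB) and -0.81 (MT-CO1), and median changes by complex were -0.70 for complexes I and V and -0.66 for complex IV.

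Between the drugs, all 15 protein and rRNA genes were lower with mitoxantrone than with pyrimethamine, while 39.5% of all tested genes were lower and 36.9% higher. In each of them every mitoxantrone library was below every pyrimethamine library, as in 35.5% of all tested genes, while 33.3% had every library above. The median difference was -1.03 on the log2 scale, against -0.024 over all genes. Among the 15 it was largest for MT-ND1 (-1.78, 3.43-fold lower) and MT-RNR1 (-1.63, 3.10-fold lower) and smallest for MT-ND4L (-0.63). Of the tRNAs, MT-TT differed by -2.70 (6.48-fold lower), MT-TE by -1.99 and MT-TW by -1.95. These differences share their libraries with the comparisons against the control and are not separate evidence.

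Ratios between neighbouring genes within a library do not depend on how libraries were scaled. The 5 ratios were chosen by position, but with earlier results of these data known, so their p-values are a description. Each ratio was compared between the 3 pairs of groups with a two-sided exact permutation test, 15 tests in all. With 4 libraries against 4 the smallest possible p is 0.0286, which adjusted over the 15 tests was 0.0429. MT-RNR1 and MT-RNR2 lie side by side, separated by MT-TV. For every 100 reads of MT-RNR2 there were 8.82, 9.84, 9.29 and 9.42 reads of MT-RNR1 in the control, 16.3, 14.3, 14.9 and 16.2 with pyrimethamine and 12, 10.4, 10.1 and 10.6 with mitoxantrone. Both drugs gave a higher ratio than the control in all libraries, by 0.72 and 0.20 on the log2 scale (both exact p = 0.0286, adjusted 0.0429). With mitoxantrone replicate 1 left out the second value was 0.15.

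Reads of MT-ND1 per 100 of MT-RNR2 moved in opposite directions with the drugs. They were 19.9, 20.5, 20.2 and 21.1 in the control, 21.8, 22.4, 24 and 22.9 with pyrimethamine and 14.2, 13.8, 14.5 and 14.9 with mitoxantrone. Differences were 0.16 with pyrimethamine, -0.51 with mitoxantrone and -0.67 between the drugs, with no overlap in any pair (each exact p = 0.0286, adjusted 0.0429). MT-ND1 and MT-RNR2 lie on the same strand, with MT-TL1 between them.

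Genes that share an mRNA did not keep a fixed ratio either. Reads of MT-ATP8 per 100 of MT-ATP6 were 16, 17.0, 18.5 and 18.6 in the control and 12.7, 14.1, 14.4 and 14.4 with pyrimethamine, lower in every library (log2 difference -0.33, exact p = 0.0286, adjusted 0.0429). With mitoxantrone they were 16.2, 15.5, 15.8 and 15.4, inside or below the control range (-0.15, exact p = 0.0571, adjusted 0.0714). MT-ND4L per 100 of MT-ND4 differed little, with 9.58 to 9.93 in the control, 9.16 to 9.53 with pyrimethamine (-0.07, exact p = 0.0286, adjusted 0.0429) and 10.9, 9.37, 9.29 and 9.25 with mitoxantrone (-0.016, exact p = 0.886). Mitoxantrone replicate 1 lay above all controls and the other 3 libraries below them, and without it the difference was -0.072. How reads in the shared bases were assigned was not tested as a source of these ratios.

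MT-ND6 and MT-ND5 lie end to end on opposite strands. Reads of MT-ND6 per 100 of MT-ND5 were 1.28, 1.15, 1.57 and 1.62 in the control, 1.25, 1.64, 1.52 and 1.44 with pyrimethamine and 1.23, 1.13, 1.00 and 0.997 with mitoxantrone. Neither drug passed against the control (log2 differences 0.07, exact p = 0.714, and -0.35, exact p = 0.0571, adjusted 0.0714). Mitoxantrone lay below pyrimethamine in all libraries (-0.42, exact p = 0.0286, adjusted 0.0429).

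**Figure D4:**
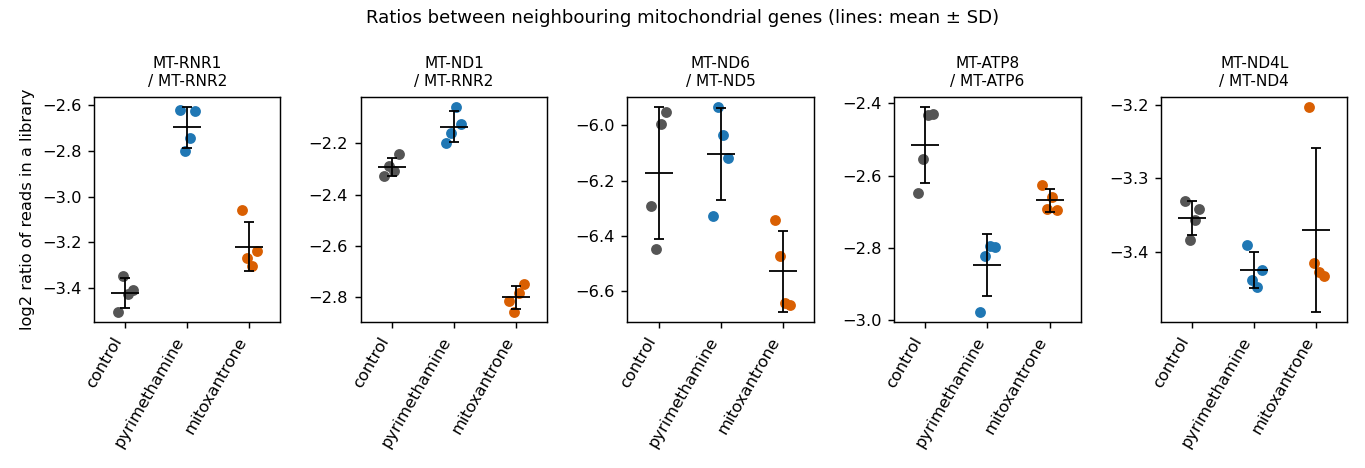
Each panel plots the log2 ratio of reads of 2 neighbouring mitochondrial genes in the 4 libraries of each group (points), with mean and SD as black lines, on a vertical scale of its own. MT-RNR1/MT-RNR2 is highest with pyrimethamine, MT-ND1/MT-RNR2 is lowest with mitoxantrone, and the groups of MT-ND6/MT-ND5 overlap except between the drugs.

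The tRNA genes held very few reads. Of the 22, 6 had no read in any of the 12 libraries: MT-TN, MT-TK, MT-TG, MT-TR, MT-TH and MT-TL2, where a count of 0 allows up to 3 reads in a library. A further 10 had reads but too few to test. Summed over the 12 libraries these were 92 reads for MT-TF, 61 for MT-TA, 56 for MT-TI, 55 for MT-TY, 20 for MT-TD, 10 for MT-TM, 8 for MT-TV, 7 for MT-TL1 and 2 each for MT-TC and MT-TS2. MT-TF, the phenylalanine tRNA before MT-RNR1, had 6, 17, 11 and 6 reads in control, 8, 13, 9 and 6 in pyrimethamine and 7, 3, 1 and 5 in mitoxantrone libraries, and a change of that size is not readable at this depth. For these 16 tRNAs no change is given.

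The 6 tested tRNAs differed widely in depth. MT-TT held 3632 reads over the 12 libraries, MT-TW 629, MT-TS1 251, MT-TP 222, MT-TQ 187 and MT-TE 184. A tRNA entered through the groups where it was high: MT-TQ reached 10 in no control library, and MT-TE and MT-TS1 in no mitoxantrone library. Their changes are therefore given gene by gene, as a description. Because RNA selection is not given, they are changes in reads and may not follow the amounts of the excised tRNAs.

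MT-TT, which lies beside MT-CYB, had normalized counts of 307, 258, 312 and 273 in the control, 420, 525, 589 and 560 with pyrimethamine and 72.3, 91.6, 75.5 and 78.9 with mitoxantrone. No groups overlapped, and the changes were 0.86 (SE 0.12, adjusted p = 3.75e-06) and -1.84 (adjusted p = 1.54e-11). The second is a 3.58-fold drop, the largest fall of any tested mitochondrial gene. MT-CYB itself changed by 0.45 and -0.61. MT-TW, between MT-ND2 and MT-TA, was at 47.7, 45.6, 59.2 and 55.3 in the control, 68.5, 87.7, 88.0 and 84.3 with pyrimethamine (0.65, adjusted p = 0.0133) and 16.5, 18.1, 26.0 and 22.4 with mitoxantrone (-1.30, adjusted p = 1.46e-05). It too had no overlap between groups.

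MT-TQ was the one tested gene of this genome that rose with both drugs. Its reads numbered 3, 4, 5 and 1 in control, 14, 41, 30 and 40 in pyrimethamine and 4, 20, 6 and 19 in mitoxantrone libraries. In normalized counts that is 2.81, 2.64, 5.19 and 1.32, then 12.5, 40.4, 30.7 and 43.8, then 4.13, 19.1, 7.42 and 17.0. No control library reached the minimum for testing, so MT-TQ entered through the drug groups alone. The p-values of its rises and of the difference between the drugs are therefore a description. The pyrimethamine libraries lay above all controls (log2 2.99, SE 0.50, adjusted p = 3.41e-05). With mitoxantrone the change was 1.57 (adjusted p = 0.00848), and replicate 1 lay inside the control range. The difference between the drugs (-1.42, adjusted p = 0.0146) no longer passed without pyrimethamine replicate 2 or 4 or mitoxantrone replicate 1 (adjusted p = 0.0520, 0.0569 and 0.0640). After quantile normalization it was -0.81 and did not pass either (adjusted p = 0.150).

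The other minus-strand tRNAs were near the limit of what these counts can show. MT-TE and MT-TS1 reached 10 in no mitoxantrone library, so the p-values of their falls are a description too. MT-TE was at 6.61 to 16.6 in control, 17.8 to 30.7 in pyrimethamine (1.07, adjusted p = 0.0234) and 3.82 to 9.86 in mitoxantrone libraries (-0.92, adjusted p = 0.0389). MT-TP was at 8.42 to 23.9, 21.9 to 32.5 (0.65, adjusted p = 0.165) and 5.16 to 13.6 (-0.90, adjusted p = 0.0417). MT-TS1 was at 19.2 to 28.1, 16.8 to 42.7 (0.27, adjusted p = 0.518) and 7.17 to 9.90 (-1.28, adjusted p = 0.00184). The mitoxantrone call of MT-TE ended without control replicate 1, 3 or 4 or mitoxantrone replicate 1, 2 or 3, with adjusted p from 0.0544 to 0.109. That of MT-TP ended without control replicate 2, 3 or 4, pyrimethamine replicate 2 or 3, or mitoxantrone replicate 1 or 2, with adjusted p from 0.0504 to 0.125. Both calls also ended with no filter on low values (adjusted p = 0.125 for MT-TE and 0.125 for MT-TP) and after quantile normalization (0.232 and 0.258). With only the 8 libraries compared they ended too (adjusted p = 0.0700 and 0.0707). For MT-TE the call ended further with a pseudocount of 10 (adjusted p = 0.0526), by edgeR (0.0628) and by DESeq2 (0.0614).

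The tested tRNAs shared a position in the annotation. In 9 of the 22, the space to one of the neighbouring genes on the same strand was over 100 bases, a limit chosen after the values were seen, and all 6 tested tRNAs were among them. None of the 13 without such a space was tested. The larger space was 324 bases for MT-TW, 1213 for MT-TE and 6634 for MT-TS1, and at least 646 for MT-TT and at least 4328 for MT-TQ and MT-TP, whose space crosses the origin of the circular map. MT-TF, MT-TA and MT-TY had such a space and too few reads. MT-TI, MT-TM and MT-TD, with the largest spaces below the limit (70 to 72 bases), had 56, 10 and 20 reads. How reads that also touch a neighbouring gene were counted is not given, and its part in this pattern was not tested.

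**Figure D5:**
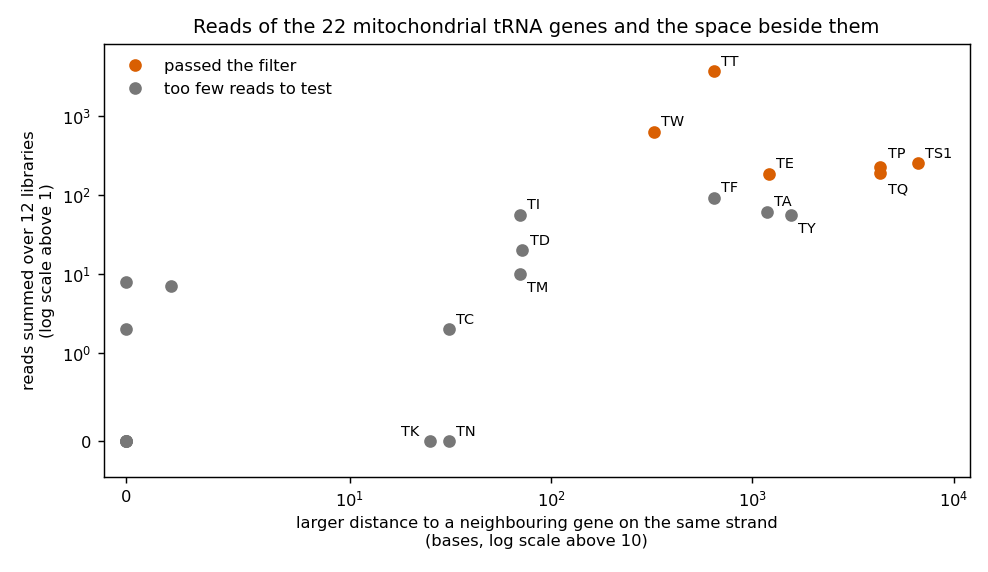
Each point is 1 of the 22 mitochondrial tRNA genes, with the larger distance in bases to a neighbouring gene on the same strand across and the reads summed over 12 libraries upward, both on log scales that include 0. Orange points passed the minimum for testing, and all 6 lie beyond 100 bases. Distances that cross the map's origin (MT-TT, MT-TF, MT-TP and MT-TQ) are lower bounds.

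Copies of mitochondrial genes in nuclear chromosomes can share reads with the originals. Of 407 listed copies, 47 had reads, and together they held 0.560% to 0.745% as many reads as the mitochondrial genes in a library. MTATP6P1 held 88.8% of these copy reads. For every 100 reads of MT-ATP6 it had 11.6 ± 0.534 in the control, 11.4 ± 0.324 with pyrimethamine and 12.5 ± 0.724 with mitoxantrone (SD, n = 4). Reads that match both may have been split between them, so the level of MT-ATP6 is uncertain. Outside the mitochondrial genome, the tested genes whose log2 levels followed the mean of the 13 protein genes most closely over the 12 libraries were MTATP6P1, ALKBH1, MTND2P28, SPAG1 and HSPA14. ALKBH1, a nucleic acid dioxygenase, had mean normalized counts of 1249, 1525 and 894 in control, pyrimethamine and mitoxantrone libraries. Likeness was ranked by Pearson's r, which rests here mainly on the differences between the 3 groups.

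Nuclear genes that maintain, transcribe and process this genome did not move as a block with it. Of 67 such genes, all tested, 19 rose, 17 fell and 31 did not pass with pyrimethamine, shares close to those of all tested genes (26.4% rose and 26.9% fell), and the median log2 change was 0.0015. With mitoxantrone 39 rose, 9 fell and 19 did not pass, with a median of 0.17, beside 33.5% and 35.8% of all tested genes, in the group where the mitochondrial RNAs were lowest. After rescaling to the same total of reads outside the mitochondrial genome, 23 rose and 21 fell with mitoxantrone. Over all genes tested in that setting 3926 rose and 7736 fell. By role, with mitoxantrone 7 of 10 transcription genes rose and 2 fell. TFB1M, which methylates an rRNA, was counted among these transcription genes. Of the replication genes 11 of 17 rose and 4 fell, and of the RNA processing genes 10 of 15 rose and 0 fell. Of the genes of RNA stability and decay 2 of 6 rose and 0 fell, of those that modify rRNA and tRNA 6 of 13 rose and 3 fell, and of the nuclear regulators 3 of 6 rose and 0 fell. With pyrimethamine, in the same order of roles, 5, 7, 2, 4, 1 and 0 rose and 1, 5, 3, 0, 5 and 3 fell.

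Among transcription genes, POLRMT, the mitochondrial RNA polymerase, was at 6786 ± 452, 8206 ± 494 and 8060 ± 363 normalized counts in control, pyrimethamine and mitoxantrone libraries (SD, n = 4). Its changes were 0.27 (adjusted p = 7.28e-05) and 0.25 (adjusted p = 0.000127). TFAM, which packages the DNA and helps the polymerase start, rose by 0.22 (adjusted p = 0.000124) and 0.44 (adjusted p = 5.22e-09). TFB2M, the initiation factor, rose by 0.27 and 0.24 (adjusted p = 0.000262 and 0.000476). TEFM, the elongation factor, did not pass with pyrimethamine (0.09, adjusted p = 0.349) and fell with mitoxantrone (-0.36, adjusted p = 0.00046). TOP1MT, the mitochondrial type I topoisomerase, fell with pyrimethamine (-0.68, adjusted p = 1.32e-10) and rose with mitoxantrone (0.21, adjusted p = 0.000373). With the rescaling to reads outside the mitochondrial genome, the mitoxantrone calls of POLRMT, TFB2M and TOP1MT ended (adjusted p = 0.0573, 0.102 and 0.189).

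TFB1M, which methylates the rRNA made from MT-RNR1, had the largest rise with mitoxantrone in the list, from 384 ± 39.6 to 952 ± 98.0 normalized counts (1.31, adjusted p = 3.34e-11), and did not pass with pyrimethamine (0.01, adjusted p = 0.962). LIG3, the DNA ligase shared by nucleus and mitochondria, rose by 1.14 (adjusted p = 6.07e-13), and FASTKD3, of a family of mitochondrial RNA-binding proteins, by 0.73 (adjusted p = 2.29e-09). The largest falls with mitoxantrone were those of EXOG, a mitochondrial nuclease (-0.66, adjusted p = 2.42e-07), MTO1, a tRNA-modifying enzyme (-0.53, adjusted p = 2.38e-07), and TEFM. With pyrimethamine MTERF3, of the mitochondrial termination factor family, rose most (0.62, adjusted p = 4.35e-08). POLG2, the accessory subunit of the DNA polymerase, followed (0.61, adjusted p = 5.38e-07). Beside TOP1MT, the largest falls with pyrimethamine were those of PPARGC1B and PPARGC1A, coactivators of mitochondrial biogenesis (both -0.54, adjusted p = 1.77e-05 and 3.71e-07).

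Of the genes that act on the transcripts, SLIRP, the partner of LRPPRC in stabilising mitochondrial mRNAs, rose with pyrimethamine (0.53, adjusted p = 3.51e-08) and did not pass with mitoxantrone (0.11, adjusted p = 0.0719; 0.0204 and 0.0409 without control replicate 3 or 4). LRPPRC rose by 0.11 with pyrimethamine (adjusted p = 0.0123), turned to -0.014 after quantile normalization and lost its call after both rescalings to a common total (adjusted p = 0.236 and 0.0909). With mitoxantrone it did not pass (-0.06, adjusted p = 0.139) but passed as a fall after the rescaling to the same total (-0.16, adjusted p = 0.000276), the rescaling outside the mitochondrial genome (-0.20, adjusted p = 1.55e-05) and quantile normalization (-0.30, adjusted p = 7.46e-08). ELAC2, which cuts the 3′ ends of tRNAs, and TRMT10C, of the enzyme that cuts their 5′ ends, did not pass with pyrimethamine (-0.03 and 0.06, adjusted p = 0.452 and 0.305), though ELAC2 passed as a fall after the rescaling to the same total (-0.091, adjusted p = 0.0375). Both rose by 0.32 with mitoxantrone (adjusted p = 8.59e-08 and 1.43e-06). HSD17B10, another subunit of that 5′ enzyme, passed in neither comparison (0.04 and -0.05, adjusted p = 0.432 and 0.281). After the same 3 scalings its mitoxantrone change passed as a fall, at -0.15 (adjusted p = 0.00127), -0.19 (adjusted p = 7.61e-05) and -0.12 (adjusted p = 0.00384). MTPAP, the mitochondrial poly(A) polymerase, did not pass with pyrimethamine (-0.01, adjusted p = 0.904) and rose by 0.18 with mitoxantrone (adjusted p = 8.38e-05), a call that ended with the rescaling to reads outside the mitochondrial genome (adjusted p = 0.341).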

How the data were processed

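Total RNA of 12 KYSE70 samples was sequenced. The deposited values are a normalized signal, read counts the authors divided by 1 factor per library. All values are whole reads (within 0.01) once that factor is undone, and depth is the sum of these reads. Per the submitters' processing notes, the tools were featureCounts 1.5.1, STAR 2.6.90c, cutadapt 1.12 and FastQC 0.11.5, and the builds hg38 and mm10. RNA selection, strand and annotation are not given in the sources used here. Coordinates and sequences are from GRCh38 with GENCODE release 29, which held 58611 of the 58884 identifiers. Group was the single term of a limma 3.58.1 model (R 4.3.3) of log2(value + 1) in the 12 libraries, with eBayes and a trend, two-sided, calls at 0.05, tested on simulated data. Fold changes on that scale are too small for low genes. Shares and ratios use recovered reads, and limits on counts of 0 cover counting error only. Replicates differed by more than sampling noise (chi-square per gene at least 5.45). Over all genes compared, mitoxantrone replicate 1 stood apart, at 28.1, 23.8 and 33.9 against mitoxantrone replicates 2, 3 and 4. Those libraries were at 5.45 to 10.9 against each other. Alternatives included other pseudocounts, filters, scalings and variance settings, each library left out, a replicate block, and edgeR 4.0.16 and DESeq2 1.42.0 on the recovered reads. The genes, lists and ratios were chosen with earlier results of these data known. Named nuclear genes were 12 always taken plus the 3 largest called rises and falls per drug, and the 5 most alike outside the mitochondrial genome. Python 3.11.15 made the tables and figures.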

Additional observations from a re-analysis of the deposited data

Results flagged for a closer look

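Of 102 groups of 4 libraries screened for a library far from the others, 15 stood out, where chance gives about 1 in 20 for a single group. In each case it was replicate 1 of its group, and 11 of the 15 were mitoxantrone groups. The groups are genes, sums and ratios of the same 12 libraries, so the flags are not independent. That rate therefore does not apply to their count. With mitoxantrone, replicate 1 held 3.23% of all reads on mitochondrial genes (others 3.84% to 3.89%) and 2.39% on the protein genes (others 2.85% to 2.90%). Its normalized counts were low for MT-ND1 (70543, others 86465 to 88280), MT-ND2 (61136, others 78022 to 80958), MT-ND4 (196851, others 258894 to 267282) and MT-ND5 (82695, others 104949 to 108819). They were also low for MT-CYB (97436, others 118901 to 120764), MT-CO3 (281620, others 310841 to 314856), MT-ATP8 (16847, others 19999 to 20484) and MT-ATP6 (103990, others 128531 to 132615). Its MT-ND4L reads per 100 of MT-ND4 were high at 10.9 (others 9.25 to 9.37). All these counts lay on the far side of the group from the control.

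With pyrimethamine, replicate 1 gave 31.7% of protein-gene reads to complex I (others 33.3% to 33.5%) and 54.3% to complex IV (others 52.4% to 52.7%). Its MT-TE level was 17.8 normalized counts (others 29.6 to 30.7), and it had 12.7 MT-ATP8 reads per 100 of MT-ATP6 (others 14.1 to 14.4). The first 3 of these lay toward the control.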

How the results depend on the processing

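Of the 15 protein and rRNA genes, 10 to 13 rose with pyrimethamine with 1 library left out and 8 after quantile normalization, and 15 fell with mitoxantrone in every setting. Over the 21 tested genes, tRNAs included, 17 rose with pyrimethamine in the fit as reported, by edgeR and by DESeq2 and with the replicate block, and 13 to 17 with 1 library left out. In the fit as reported 26.4% of all tested genes rose. Some of these tRNAs entered only through groups where they were high, so the counts over 21 genes are a description. Quantile normalization gave 11, with MT-CO2 at -0.026 (adjusted p = 0.677) and MT-ATP6 at -0.012 (adjusted p = 0.854). With mitoxantrone 20 fell with the replicate block, 19 by edgeR and by DESeq2, and 18 to 20 with 1 library left out. In the fit as reported 35.8% of all tested genes fell. The 1 rise (MT-TQ) became 0 when a mean of at least 100 was required, because the gene was then not tested. Between the drugs 20 to 21 were lower with 1 library left out, beside 39.5% of all tested genes in the fit as reported. Over all tested genes, same-numbered libraries did not deviate together (r -0.0133 to 0.0295). Replicate 1 was low for most mitochondrial genes in both drug groups, and pairing over these genes alone was not tested.

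Of the nuclear genes, 18 fell with mitoxantrone after rescaling to the same total and 14 after quantile normalization. After rescaling outside the mitochondrial genome 23 rose and 21 fell, and 22 were lower than with pyrimethamine. Over all genes tested, 7217 fell after the first scaling and 5799 after the second. After the third 3926 rose and 7736 fell, and 7713 were lower than with pyrimethamine. LRPPRC with pyrimethamine reversed to -0.014 after quantile normalization (adjusted p = 0.741). The 2 rescalings to a common total moved the median mitoxantrone change of all genes to -0.11 and -0.15. With 1 library left out, 17 to 20 rose and 16 to 17 fell with pyrimethamine, 35 to 39 and 9 to 11 with mitoxantrone, and 35 to 39 and 12 to 15 between the drugs. Unless stated here, the cause was not tested.

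With 1 library left out, the mitochondrial shares ran from 6.35% to 6.52%, 7.42% to 7.92% and 3.65% to 3.87%. With 3 libraries against 4 the two-sided exact test of a ratio cannot pass 0.05, so its value is given without a test.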
